A study of Caenorhabditis elegans with 4 samples.

Results

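The sites described here are all places on chromosome IV of Caenorhabditis elegans at which a peak of the protein MAU-2 was listed. They were found by taking every chromosome IV peak from 3 deposited lists (the list of each ChIP replicate and 1 list for the series as a whole, called the series-wide list) and merging peaks that shared at least 1 bp. The 337 peaks of replicate 1, 144 of replicate 2 and 193 of the series-wide list formed 387 sites, out of 2063 on the 6 nuclear chromosomes. The choice used position alone and no score. Without replicate 1 there were 206 sites, and without replicate 2 there were 388.

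The material was wild-type N2 embryos of mixed stages, from a mixed population of males and hermaphrodites kept at 20 degrees Celsius. Both groups share this background and carry no transgene or mutation. The MAU-2 ChIP group has 2 replicates, precipitated with the affinity-purified rabbit antibody SDQ4493 from extract of embryos fixed in 2% formaldehyde for 30 min, and the input group has 2 samples, whose files were not analysed here. Whole embryos were used, so the sites are those of all their cell types together. No label tells if each replicate was grown as its own culture. How the series-wide list was made is not stated either, so a site in all 3 lists may not stand for 3 independent observations.

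MAU-2 is the worm member of the Scc4 family. With its partner of the Scc2 family it loads cohesin, the ring-shaped complex that holds sister chromatids together and folds chromatin into loops. The gene was first known in C. elegans for defects in the guidance of migrating cells and axons. Chromosome IV, like the other autosomes of this species, has repeat-rich arms that recombine often and a gene-dense centre that recombines little. It also carries most of the genes for germline piRNAs, which lie in broad clusters. Positions of genes on the build of these files were not used here, so no site is assigned to a gene.

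Of the 387 sites, 90 were held by all 3 lists, which is 23.3% (exact 95% interval 19.1 to 27.8), compared with 25.5% of the 1676 sites on the other 5 nuclear chromosomes (23.5 to 27.7). Over all nuclear chromosomes the share was 25.1%. The share on IV did not differ detectably from that on the rest (Fisher's exact test, two-sided, p = 0.36, Benjamini-Hochberg adjusted p = 0.58 over 27 tests). Another 65 sites were held by 2 lists and 232 (59.9%) by 1 list. Of the sites held by 1 list, 188 came from replicate 1, 36 from the series-wide list and 8 from replicate 2. Of those held by 2 lists, 28 were in replicate 1 and the series-wide list, 22 in replicate 2 and the series-wide list, and 15 in the replicates without the series-wide list. In 89 of the 90 sites held by all 3 lists, a peak of each list covered a common base. At the remaining site the lists were joined by partial overlaps. Without the densest 100 kb stretch of IV, the share in all 3 lists was 25.2%, or 90 of 357 sites. The gap was wider in the higher-scoring 50% of each list, with 44 of 187 sites on IV (23.5%) against 32.2% elsewhere. It did not pass after adjustment (Fisher's exact test, two-sided, p = 0.022, adjusted p = 0.084). The share depended on which lists were compared. Without replicate 1, both remaining lists held 55.8% of the sites on IV, against 59.7% on the other chromosomes, and without replicate 2 they held 30.4%, against 31.7%.

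Site density on IV was 22.1 sites per Mb, against 20.2 on the other chromosomes together. By this count it was the second highest after X, which had 24.8, and that of III, with 21.5, was close to it. The count on IV includes the densest stretch, described below, with 30 sites, 25 of them in the series-wide list alone. For sites in all 3 lists the density was 5.14 per Mb on IV and 5.17 on the others together. There X, with 6.83, and III, with 5.44, were above IV. Replicate 1 peaks were about as dense on III (19.30 per Mb) as on IV (19.26). The merged sites covered 1.17% of the chromosome. In single lists, 0.992% of IV was covered in replicate 1, 0.506% in replicate 2 and 0.504% in the series-wide list.

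Sites found in more lists were wider and scored higher by their medians. The peak score is the value that the authors' peak caller gave, on a scale the files do not name. The caller is named as MACS for the replicates and as MACS v2 for the series-wide list. Differences of the series-wide list in score, width or membership cannot be told apart from a difference in caller version. On IV its highest value was 89.84 in the series-wide list and 3100 in each replicate, so scores were not compared between the series-wide list and the replicates. The lowest values on IV were 50.07 in replicate 1, 51.38 in replicate 2 and 1.39 in the series-wide list. A score of exactly 3100 may be an upper limit of the scale. Over all chromosomes 42 peaks of replicate 1 and 12 of replicate 2 had it, while 1 peak of each list scored higher and no other score of 1000 or more occurred more than once in a list. Sites at 3100 are therefore not ranked among themselves, and ratios there may be affected. The sites in all 3 lists had a median width of 611 bp, with a range of 232 to 5726. Sites in replicate 1 alone had a median of 269 bp and those in the series-wide list alone 217 bp. Merging adds to the width of a site held by several lists. At the 90 common sites, the peaks themselves had a median summed width of 604 bp in replicate 1, 479.5 bp in replicate 2 and 333 bp in the series-wide list. The median replicate 1 score was 424 at sites in all 3 lists and 81.3 at sites in replicate 1 alone. The median replicate 2 score was 169 at sites in all 3 lists and 67.2 at sites in replicate 2 alone. In the series-wide list these medians were 11.7 and 3.63.

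**Figure D1:**
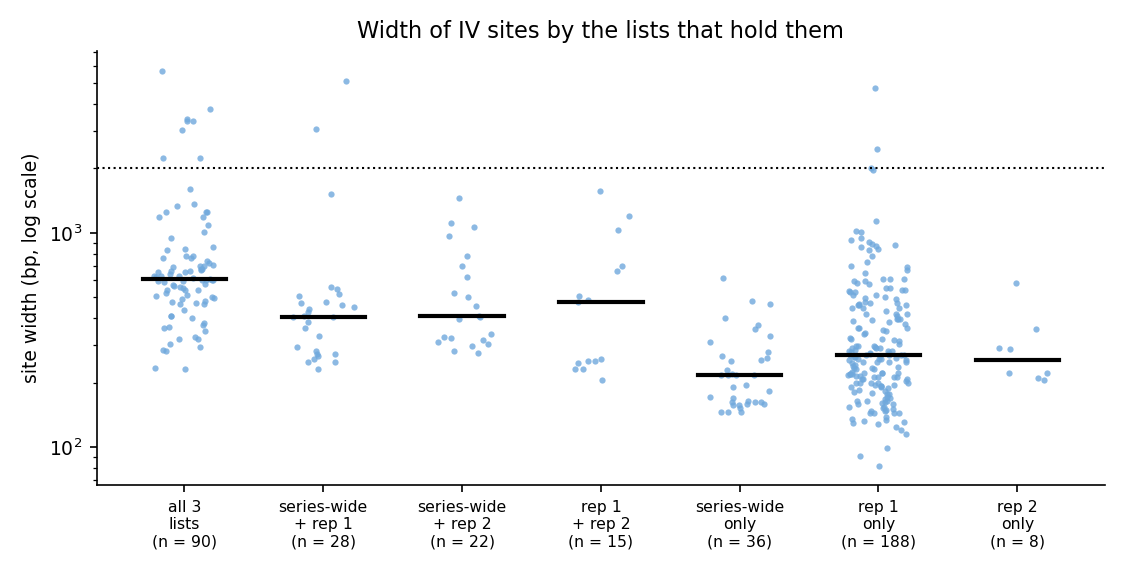
Width in bp (log scale) of each of the 387 chromosome IV sites, grouped by the lists that hold the site. Points are sites, horizontal bars are medians and the dotted line marks 2000 bp. The median is 611 bp for the 90 sites in all 3 lists and 269 bp for the 188 in replicate 1 alone, and the groups overlap widely.

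Within each list, the share of sites found in all 3 lists went with the score. Among the sites of replicate 1 on IV, 2 of 81 (2.47%, 0.300 to 8.64) in the lowest score quartile and 66 of 80 (82.5%, 72.4 to 90.1) in the highest were in all 3 lists. In replicate 2 the shares were 15 of 34 (44.1%, 27.2 to 62.1) and 33 of 34 (97.1%, 84.7 to 99.9). The series-wide list had 6 of 44 (13.6%, 5.17 to 27.4) and 39 of 44 (88.6%, 75.4 to 96.2). The intervals of the lowest and the highest quartile were separate in each list. Of the 188 sites in replicate 1 alone, 118 scored under 100 and 4 scored above the median of the sites in all 3 lists. High score and absence elsewhere nevertheless occurred together. Of the 80 replicate 1 sites in its highest quartile, 14 were not in all 3 lists. Of these, 8 were in replicate 1 alone, 4 were also in the series-wide list and 2 were also in replicate 2.

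The replicates were compared directly by their overlapping peaks. Of the 144 replicate 2 peaks on IV, 112 overlapped a replicate 1 peak (77.8%, 70.1 to 84.3). In the other direction it was 120 of 337 replicate 1 peaks (35.6%, 30.5 to 41.0). Replicate 2 peaks with a counterpart had a median score of 129, and those without one 77.7. Midpoints of the 112 matched pairs lay a median of 28 bp apart. Across these pairs the scores had a Spearman's rho of 0.61 and a Pearson's r of 0.61 on log10 scores. On the other chromosomes rho was 0.74 over 521 pairs. These are descriptions across peaks, which share their libraries and are not replicates. Requiring a reciprocal overlap of 50% gave a rho of 0.72 over 92 pairs on IV. No value under this rule is given for the other chromosomes, so 0.72 cannot be set against the 0.74 there.

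At the 90 sites in all 3 lists, replicate 1 had the higher score at 81 and replicate 2 at 8, and 1 site had 3100 in both. The ratio of replicate 1 to replicate 2 score had a median of 2.40 and quartiles of 1.61 and 4.20. Since the depth of the libraries is unknown, this ratio describes the scores of the lists and not a difference in binding. Some sites lay far from it, and they were chosen after their values were seen. The site from 12730452 to 12732696 scored 93.8 in replicate 1, where it was split into 3 peaks, and 1704 in replicate 2. The site from 12891254 to 12891852 scored 50.5 in replicate 1, close to the lowest score of that list on IV, and 332 in replicate 2. In the opposite direction, the site from 8574215 to 8574981 scored 1766 in replicate 1 and 104 in replicate 2, a ratio of 16.9.

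**Figure D2:**
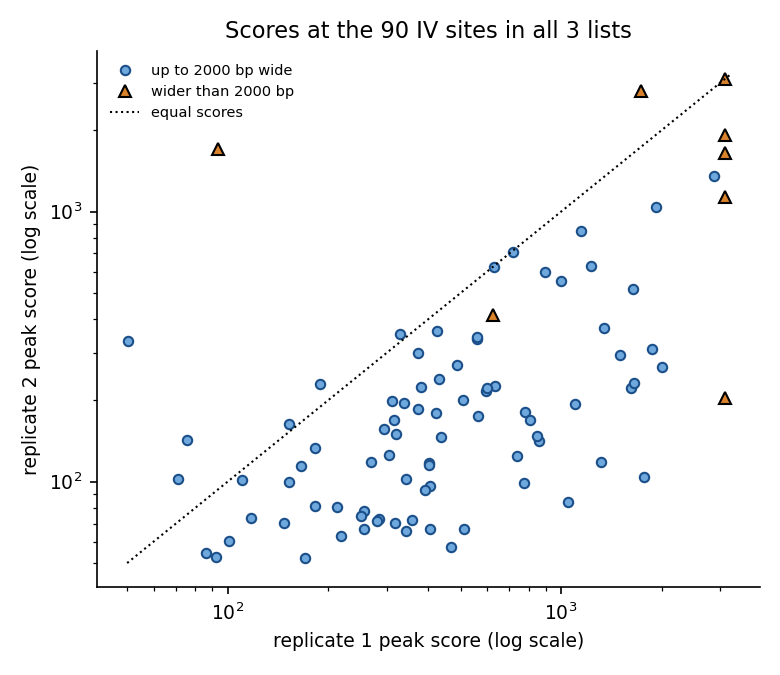
Peak score in replicate 1 (horizontal, log scale) and replicate 2 (vertical, log scale) at the 90 chromosome IV sites in all 3 lists, one point per site. Triangles are sites wider than 2000 bp and the dotted line marks equal scores. Replicate 1 is higher at 81 sites, and the wide site far above the line scored 93.8 in replicate 1 and 1704 in replicate 2.

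The sites of IV in all 3 lists that scored highest in the series-wide list were mostly narrow, whereas the highest replicate scores belonged mainly to wide sites. Of the 10 highest-scoring sites of IV in each list, 7 were wider than 2000 bp in replicate 1, 6 in replicate 2 and 3 in the series-wide list. All coordinates are on WormBase build WS220, counted from 1, and give the merged site. The 10 sites in all 3 lists with the highest series-wide scores included 7 under 1000 bp, 1 of 1595 bp and 2 wider than 2000 bp. They lay along the whole chromosome, with 3 in the left, 3 in the central and 4 in the right 33.3% of its length.

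The highest of them, from 8375181 to 8375857, was 677 bp wide. It scored 1928 in replicate 1, 1038 in replicate 2 and 89.84 in the series-wide list. The site from 2828425 to 2830651 scored 61.14 in the series-wide list. It was at the possible limit of 3100 in both replicates, so the equal scores do not show equal signal. A site near the left end, from 143722 to 144324, scored 997 in replicate 1, 552 in replicate 2 and 58.12 in the series-wide list. All these values lie well above the IV medians, which were 122 in replicate 1, 108 in replicate 2 and 7.90 in the series-wide list. Close to the middle of the chromosome, the site from 9045731 to 9048766 was 3036 bp wide and scored 3100 in replicate 1, 1916 in replicate 2 and 57.88 in the series-wide list.

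A further group ranked lower in replicate 2 than in replicate 1 and the series-wide list. Their replicate 2 scores were still above 169, the median there of the sites in all 3 lists. The site from 12637927 to 12638633 scored 1650 in replicate 1, 231 in replicate 2 and 50.78 in the series-wide list. The site from 3366625 to 3367187 scored 1623 in replicate 1, 222 in replicate 2 and 50.22 in the series-wide list. The site from 10945566 to 10946263 scored 2004 in replicate 1, 265 in replicate 2 and 48.85 in the series-wide list. Among the 135 sites that replicate 2 held, these 3 ranked 30, 35 and 27. The site from 15409273 to 15409816 was of the same kind, with 1506 in replicate 1, 296 in replicate 2 and 46.82 in the series-wide list. By contrast, the site from 13360460 to 13362054 ranked alike in every list, at 8 in replicate 1, 6 in replicate 2 and 8 in the series-wide list. It scored 2866 in replicate 1, 1350 in replicate 2 and 50.07 in the series-wide list. At the site from 14837926 to 14838597 the replicates were almost equal, with 719 in replicate 1 and 710 in replicate 2, and the series-wide score was 47.72. The eleventh site in this order scored 44.55, so the tenth is not set apart from those below it.

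Wide regions made up a small part of the sites and a large part of the covered bases. Of the 387 sites, 13 were wider than 2000 bp (3.36%, 1.80 to 5.68), against 3.94% of the sites on the other chromosomes (3.06 to 4.98) and 3.83% over all nuclear chromosomes. No difference was detected (Fisher's exact test, two-sided, p = 0.66, adjusted p = 0.85). The 13 held 21.7% of all bases covered by IV sites. The widths ran from 2002 to 5726 bp and the widest site below the limit had 1973 bp. All 7 replicate 1 peaks on IV at the possible limit of 3100 lay in these wide sites. Of the 13, 8 were in all 3 lists, 2 in replicate 1 and the series-wide list, and 3 in replicate 1 alone. By count, 6 lay in the left, 5 in the central and 2 in the right 33.3%. The 3 in replicate 1 alone were neighbours on the left, with gaps of 255 and 137 bp. A pair of the central ones lay 66 bp apart. The counts by part therefore depend on how such regions were split into sites.

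The widest site ran from 4416387 to 4422112 over 5726 bp. It scored 3100 in replicate 1, 1651 in replicate 2 and 13.76 in the series-wide list, where it was split into 2 peaks. The site from 11070827 to 11075926 was 5100 bp wide, with 3100 in replicate 1 and 65.49 in the series-wide list, the second highest series-wide score on IV. Replicate 2 had no peak there. The site from 6357750 to 6361160, 3411 bp wide, was broken up differently in each list. It held 3 peaks in replicate 1, 1 in replicate 2 and 5 in the series-wide list, with highest scores of 625, 415 and 9.51.

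The wide sites included neighbours that formed longer regions. From 8572623 to 8581966, 4 sites lay end to end over 9344 bp with gaps of 72, 81 and 66 bp. Their replicate 1 scores were 2603, 1766, 3100 and 3100. In replicate 2 the second scored 104 and the fourth 204, while the other 2 had no replicate 2 peak. All 4 were in the series-wide list, with scores of 24.82, 36.75, 14.70 and 32.12. From 688710 to 698286, 3 wide sites spanned 9577 bp, with replicate 1 scores of 1272, 611 and 662. Neither replicate 2 nor the series-wide list had a peak in any of the 3. Input files were not analysed here, and whether wide regions carry signal in input was not tested.

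The position of the sites along the chromosome was described by equal parts of its length, with the highest listed coordinate, 17493824, as the length. The left 33.3% held 99 sites (17.0 per Mb), the central 33.3% held 140 (24.0 per Mb) and the right 33.3% held 148 (25.4 per Mb). The left part had fewer peaks than the right in each list. Replicate 1 had 93 peaks on the left and 132 on the right, replicate 2 had 33 and 53, and the series-wide list had 33 and 69. This asymmetry was seen after the data were examined and was not tested. It was not limited to IV, as V had 89 and 135 in replicate 1, 33 and 56 in replicate 2, and 60 and 67 in the series-wide list. On I and II the left also had fewer peaks in each list, with 99 and 118 on I and 87 and 103 on II in replicate 1. On III and X the direction varied with the list. Of the sites in all 3 lists, 24 lay left, 39 in the centre and 27 right.

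Divided into 20 parts of 5% each, the chromosome held between 6 and 38 sites per part. The part with 38, the eighth from the left, owed its number to the series-wide list, with 25 sites in that list alone and 4 in all 3. The most sites in all 3 lists, 13 of 30, lay in the thirteenth part, from 10496295 to 11370985. The part just before it had the fewest sites of all, 6, of which 1 was in all 3 lists. The sixteenth part also held 30 sites, but 18 of them were in replicate 1 alone and 5 in all 3 lists.

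**Figure D3:**
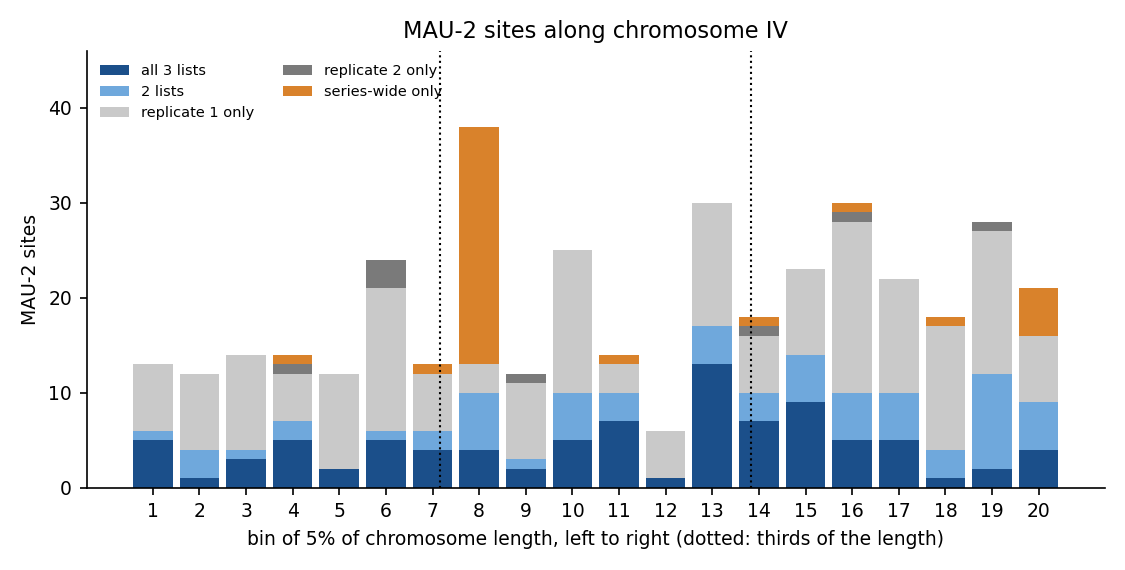
Number of MAU-2 sites in each of 20 equal parts of chromosome IV, from the left to the right end, stacked by the lists that hold them. Dotted lines mark the left, central and right 33.3% of the length. The eighth part has 38 sites, 25 of them in the series-wide list alone, and the thirteenth has the most sites in all 3 lists, 13.

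Arms and centre were compared list by list, with the central 33.3% of the length set against the rest. This split is by length alone. It was not set at the borders of the arms and centre described by recombination above, which were not used here. In the series-wide list 91 of the 193 peaks on IV lay in the centre (47.2%, 39.9 to 54.4), against 212 of 607 (34.9%, 31.1 to 38.9) on the other 4 autosomes (Fisher's exact test, two-sided, p = 0.0028, adjusted p = 0.019). The other autosomes differed among themselves, from 21.95% on I to 43.1% on II, and the share on IV was the highest of the 5. Passing this test was not particular to IV. By the same Fisher's exact test, I lay below the rest with an adjusted p of 0.00064 in this list. In replicate 1 and replicate 2 its adjusted p was 0.00014 and 0.021. The difference between IV and the rest did not pass in either replicate. In replicate 1, 112 of 337 IV peaks were central (33.2%, 28.2 to 38.5), against 31.3% on the other autosomes (28.6 to 34.1, Fisher's exact p = 0.51, adjusted p = 0.72). There the highest share was that of III, at 47.0% (Fisher's exact test against the other autosomes, adjusted p = 2.8e-07). In replicate 2, 58 of 144 were central (40.3%, 32.2 to 48.8), against 32.0% (27.8 to 36.5, Fisher's exact p = 0.070, adjusted p = 0.24). The test treats neighbouring peaks as independent, which they are not. With a central part of 50% of the length, the series-wide share was 61.7% on IV against 55.02% (Fisher's exact p = 0.11, adjusted p = 0.44). Neither replicate passed after adjustment with that split.

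The series-wide difference did not pass the threshold without the densest stretches. With the densest 100 kb of each autosome left out, 62 of 164 series-wide peaks on IV were central (37.8%, 30.4 to 45.7), against 30.8% on the other autosomes (26.9 to 34.9, Fisher's exact p = 0.11, adjusted p = 0.32). The centre then made up 33.0% of the remaining length of IV. The densest stretch was found in each list on its own, and in the replicates it held 10 peaks on IV and lay elsewhere in the centre. The same step gave 31.2% (26.2 to 36.5) against 27.8% in replicate 1 (Fisher's exact, adjusted p = 0.57). In replicate 2 it gave 35.8% (27.7 to 44.6) against 32.2% (Fisher's exact, adjusted p = 0.65). The share on IV was the higher one in all of these comparisons. None of the sites in all 3 lists lay in the stretch removed from the series-wide list. Of these 90 sites, 39 were central (43.3%, 32.9 to 54.2), against 113 of 307 (36.8%, 31.4 to 42.5) on the other autosomes, and the intervals overlap.

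**Figure D4:**
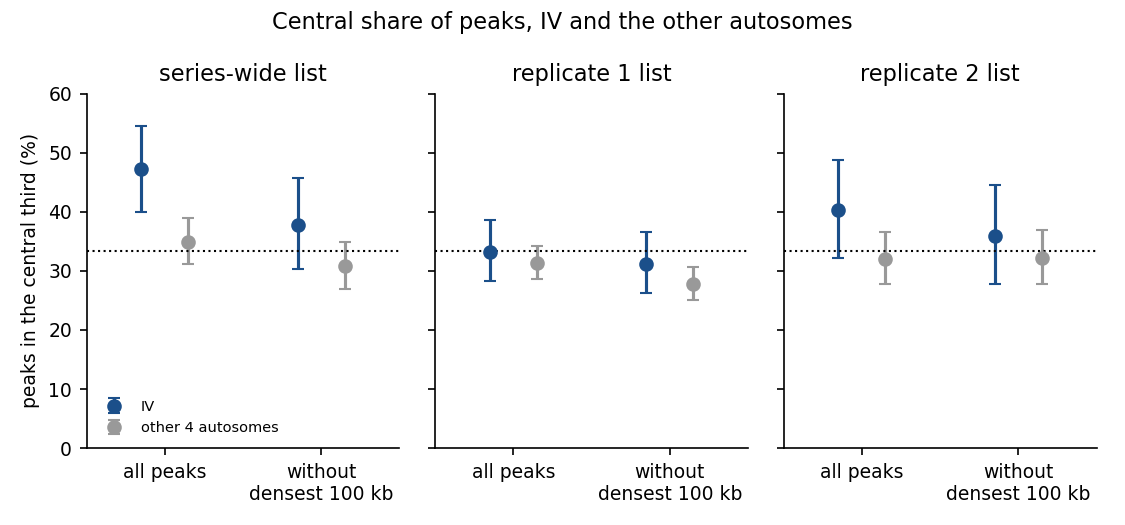
Share of peaks in the central 33.3% of the chromosome (%) on IV and on the other 4 autosomes, in each list, with all peaks and without the densest 100 kb of each autosome. Points are shares, bars are exact 95% intervals and the dotted line is 33.3%. In the series-wide list the IV share is 47.2% with all peaks and 37.8% without the densest stretches.

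The densest stretch of the series-wide list, which was also the densest by sites, ran from 6647002 to 6730864, within the centre and close to its left border. It held 30 sites in 83.9 kb, and no window of 100 kb on IV held more. Of these sites 25 were in the series-wide list alone, 4 in the series-wide list and replicate 2, 1 in replicate 1 alone and 0 in all 3. Its 29 series-wide peaks were narrow, with a median width of 217 bp, and crowded to the right, where 20 lay within 19.2 kb. Their scores ran from 1.39 to 9.55 with a median of 3.83, against a median of 8.81 for the 164 series-wide peaks elsewhere on IV. The best of them ranked 76 among the 193. Of the 50 series-wide peaks in the lowest score quartile of IV, 22 were here. The 4 replicate 2 peaks had scores between 51.4, the lowest of that list on IV, and 82.1, and the 1 replicate 1 peak scored 59.7. Outside this stretch, 61.6% of the series-wide peaks on IV overlapped a peak in both replicates, against 52.3% on the whole chromosome.

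The sites in the series-wide list alone thus fell mostly in 1 place. Of these 36 sites, 25 lay in this stretch (69.4%) and 5 in the last 5% of the chromosome. The highest-scoring of them was also the last site of IV, from 17493453 to 17493824, with a score of 18.91. Directly to its left, the site from 17492286 to 17492979 was in all 3 lists, with 372 in replicate 1, 300 in replicate 2 and 12.30 in the series-wide list. At the left end, a site of 232 bp from the first base was in all 3 lists, with 856 in replicate 1, 141 in replicate 2 and 8.20 in the series-wide list.

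The 2 next densest stretches were of another make-up. From 10935826 to 11036100, 10 sites included 6 in all 3 lists and 4 in replicate 1 alone. Series-wide scores there had a median of 23.97. Towards its left end, a pair of strong sites lay 1335 bp apart. The one from 10943391 to 10944230 scored 1867 in replicate 1, 310 in replicate 2 and 39.24 in the series-wide list, and its neighbour is the site from 10945566 given above. The site from 11025729 to 11026494 scored 1149 in replicate 1, 844 in replicate 2 and 39.05 in the series-wide list. Within this stretch, 5 sites stood almost without gaps from 11033530 to 11036100, and replicate 2 and the series-wide list held those that began at 11033530, 11034393 and 11035499.

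From 16359903 to 16458660, near the right end, 10 sites included 2 in all 3 lists. Another 4 were in replicate 1 and the series-wide list, 2 in replicate 1 alone, 1 in both replicates and 1 in replicate 2 and the series-wide list. Scores there were moderate, the highest being 431 in replicate 1, 239 in replicate 2 and 18.75 in the series-wide list, all at the site from 16382046 to 16382644.

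**Figure D5:**
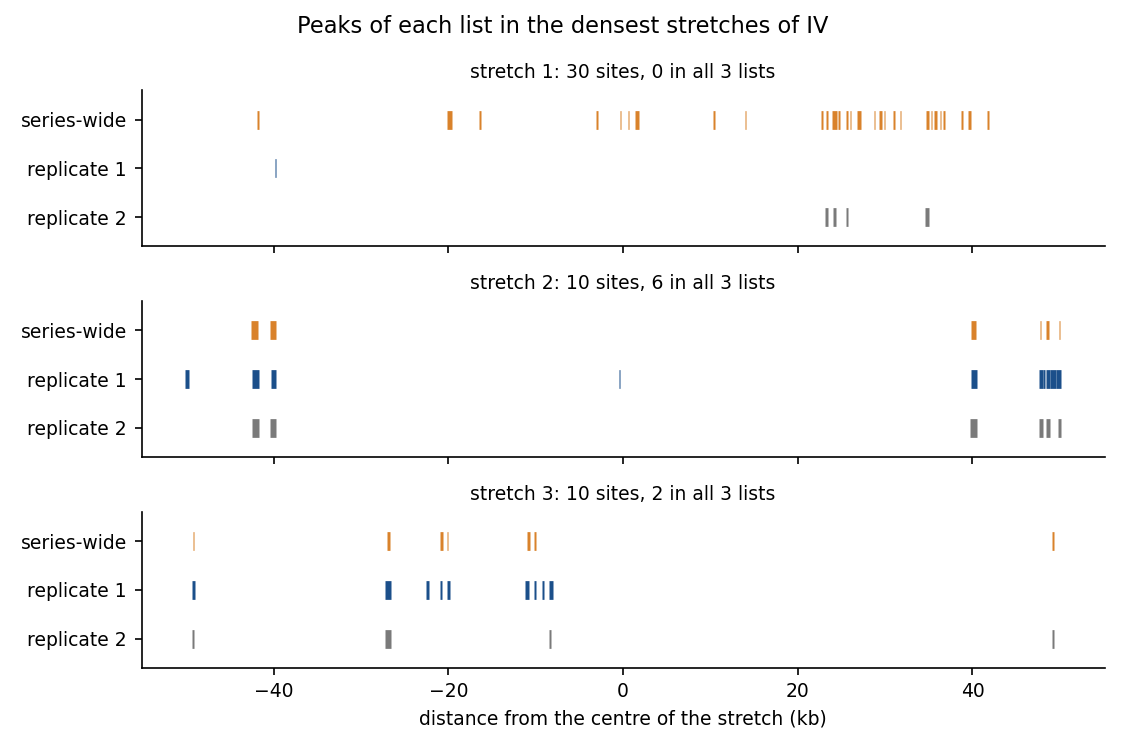
Peaks of the series-wide list, replicate 1 and replicate 2 in the 3 densest 100 kb stretches of chromosome IV, drawn to scale as distance in kb from the centre of each stretch. The first stretch has 29 series-wide peaks beside 1 peak of replicate 1 and 4 of replicate 2, whereas in the second the lists mark mostly the same places.

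Stretches without any site were also found. The longest ran from 6823758 to 7344093, 520 kb without a peak in any list, and lay to the right of the densest stretch. The next were 417 kb long, from 3681977 to 4099343, and 384 kb long, from 9877601 to 10261952. Close neighbours were common as well. The median distance between midpoints of neighbouring sites was 23.2 kb, and 131 distances (33.9%) were under 5 kb. For the 90 sites in all 3 lists the median was 119.6 kb and 12 distances (13.5%) were under 5 kb. Merging sites within 1000 bp of each other left 298 sites, of which 58 joined 2 or more. These 58 took up 147 of the 387 sites. Of the 36 sites in the series-wide list alone, 23 (63.9%) had another site within 1000 bp, compared with 29 of the 90 in all 3 lists (32.2%). Of these 23, 18 lay in the densest stretch, and outside it 5 of 11 sites in the series-wide list alone had such a neighbour.

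Among sites held by fewer than 3 lists, the leading ones were weaker in most classes. The highest-scoring site that both replicates held and the series-wide list did not, from 6210020 to 6210278, scored 299 in replicate 1 and 136 in replicate 2. The leading site of replicate 2 and the series-wide list, from 12169264 to 12170725, scored 232 in replicate 2 and 21.17 in the series-wide list. Of the 22 sites of this class, 16 lay in the right 33.3% of the chromosome (72.7%), compared with 38.2% of all IV sites. For sites in replicate 1 and the series-wide list it was 53.6%. Some of the 16 were close neighbours. The class was picked out after its values were seen, and the difference was not tested. The highest in replicate 2 alone, from 7441044 to 7441266, scored 90.8. The leading site of replicate 1 and the series-wide list was the wide one from 11070827. That of replicate 1 alone was the wide one from 688710. Both are described above.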

How the data were processed

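MAU-2 ChIP-seq peaks of 2 replicates and a series-wide list were analysed as deposited. The submitters' processing notes name BWA and the build ce10. Peaks came from MACS, and for the series-wide list from MACS v2, on build WormBase WS220, per the file headers and columns. The deposited peak score is the authors' value and has no named scale. Thresholds, the use of input and any pooling of replicates were not given in the sources used here. No file lists read numbers, and depth is unknown. A stricter or deeper call in 1 list would change how many sites it holds.

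Peaks were merged into sites where they shared 1 bp or more. A site's score in a list is the highest of its peaks there. Chromosome lengths are the highest listed coordinates. Shares carry exact Clopper-Pearson intervals at 95%, which cover counting error only. Shares on IV were compared with the other chromosomes by two-sided Fisher's exact tests, with every chromosome set against the rest and p-values adjusted by Benjamini-Hochberg over 27 tests at a threshold of 0.05. P-values are over sites or peaks within these lists, not over samples. The chromosome, members and comparisons were chosen with earlier results of these data known. Named sites are the 10 highest in all 3 lists, the 5 widest, the leading site of each class, the end sites, the 3 densest stretches and the 3 longest gaps. Others were chosen after their values were seen. The merging and tests were tested on simulated data. Statistics used scipy 1.17.1 and numpy 2.4.6 under Python 3.11.15, tables used pandas 2.3.3, and plots used matplotlib 3.10.9.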

Additional observations from a re-analysis of the deposited data

How the results depend on the processing

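Of 48 alternative values, 36 had the direction and side of the threshold of the reported value or, without a test, stayed close to it. The central share of series-wide peaks on IV was 47.2% and stayed above that of the other autosomes, but did not pass the adjusted threshold in 4 settings. These were leaving out the densest 100 kb of each autosome (37.8%), merging peaks within 1000 bp (39.3%), the higher-scoring 50% of the list (41.9%) and a central part of 50% (61.7% against 55.02%). It passed without peaks wider than 2000 bp. Counted in covered bases, the central share in replicate 1 was 40.2% on IV against 29.8% on the other autosomes, in place of 33.2% against 31.3%, with no test of bases. In replicate 2, a central part of 50% held 59.7% against 47.7% (Fisher's exact test, p = 0.013, adjusted p = 0.059). The share of wide sites went to the other side of that on the other chromosomes with peaks within 1000 bp merged (9.40% on IV against 8.73%), and neither value passed the test. The number of sites was 187 in the higher-scoring 50% of each list. Without replicate 1 it was 206 and without replicate 2 it was 388. The densest 100 kb held 30 sites, but 10 peaks in the replicate 1 list alone, 10 in the replicate 2 list alone and 13 sites with peaks within 1000 bp merged. The rank correlation of replicate scores was 0.72 with a reciprocal overlap of 50%. The cause of these changes was not tested. The numbers in the labels pair each ChIP sample with an input sample. No paired analysis was possible, because only ChIP peak lists were analysed here. What depth limits is unknown without read numbers.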
